A study of Mus musculus with 6 samples.

Results

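Lrat, Des, Reln, Col1a1, Col1a2, Col3a1, Dcn, Lum and Timp1 are genes of hepatic stellate cells and of the fibrous matrix of the liver, and their RNA was compared between KRAP-/- mice and wild-type littermates. All probesets annotated to exactly 1 of these 9 symbols were taken, which gave 17 of 45101 probesets on the array, or 17 of 45037 without the control probesets. The KRAP-/- livers came from 3 mice in which part of the coding region of KRAP was replaced with a neomycin cassette in the germline, so that every cell of the body carries the deletion. The wild-type livers came from 3 littermates, each numbered as its KRAP-/- partner. Both groups were 32 weeks old and ate normal chow, and total RNA of the whole liver of each mouse was hybridised to 1 Affymetrix Mouse Genome array, a chip that reads each transcript with 1 or more sets of short probes. The sex of these mice is not given in the sources used here, and the arrays of brown fat were not analysed here.

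Hepatic stellate cells lie between the hepatocytes and the sinusoidal endothelium and hold most of the vitamin A of the body as retinyl esters in lipid droplets. When the liver is injured, they lose these droplets, turn into myofibroblast-like cells and secrete fibrillar collagen, which is how most liver fibrosis forms. In a healthy liver the matrix is sparse, with fibrillar collagens around the portal tracts and central veins and small leucine-rich proteoglycans bound to the fibrils.

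Signals were divided by the median of their array, so that a level of 1 equals the median probeset of that liver, and levels of different probesets are not compared with each other because probes differ in brightness. Array medians were 20.2 to 23.4 in KRAP-/- livers and 19.1 to 22.6 in wild-type livers. The hepatocyte genes Alb and Apoa1 stood at 578 to 653 and 822 to 916 times the array median in KRAP-/- livers, and at 613 to 664 and 813 to 885 times in wild-type livers. The ratio of 3′ to 5′ probes, a measure of how intact the RNA was, ran from 2.28 to 2.32 for beta-actin in KRAP-/- livers and from 2.01 to 2.65 in wild-type livers, the highest being the wild-type liver of pair 1. For Gapdh it ran from 0.709 to 0.795 in KRAP-/- livers and from 0.729 to 0.778 in wild-type livers, where that liver was also the highest of its group. The targeted gene, listed as Itprid2, read 21.6, 21.3 and 20.0 in KRAP-/- livers and 23.9, 24.5 and 22.3 in wild-type livers at its 1 probeset, a difference of -0.17 on the log2 scale (adjusted p = 0.442, limma). Where this probeset lies relative to the replaced exons is not known here, so its level does not check the genotype labels.

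Of the 17 probesets, 15 had a mean of at least 0.5 over the 6 arrays and entered the test, at least 1 for each of the 9 genes, and the remaining 2 were too dim. No probeset of these genes passed an adjusted p of 0.05 in limma's moderated test, with the littermate pair as a block and adjustment over all 28531 probesets tested. Across all probesets, 1.41% passed, 0.431% higher and 0.978% lower in KRAP-/- livers. At an unadjusted p under 0.05 there were 3 of the 15, at Lrat, Col3a1 and Dcn, where all probesets tested gave 14.9%. The difference was below 0 at 10 of the 15 and above 0 at 5, beside 55.2% below 0 among all probesets tested. At the brightest probeset of each of the 9 genes, 6 differences lay below 0 and 3 above, with a median of -0.27, beside -0.08 over the brightest probesets of all genes tested. In 4 of the 15 all KRAP-/- arrays read lower than all wild-type arrays, in 0 all read higher, and in 11 the groups overlapped, while 12.3% of all probesets tested had all KRAP-/- arrays lower and 7.8% had all higher. Those 4 were both probesets of Lrat, the brighter one of Col3a1 and the one of Timp1. The Timp1 probeset averaged 0.298 in KRAP-/- livers and 0.788 in wild-type livers, so it passed the limit of 0.5 only through the wild-type livers. Its place in the counts of lower probesets is therefore no support. In bulk liver RNA, fewer cells of a type and less RNA per cell cannot be told apart.

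**Figure D1:**
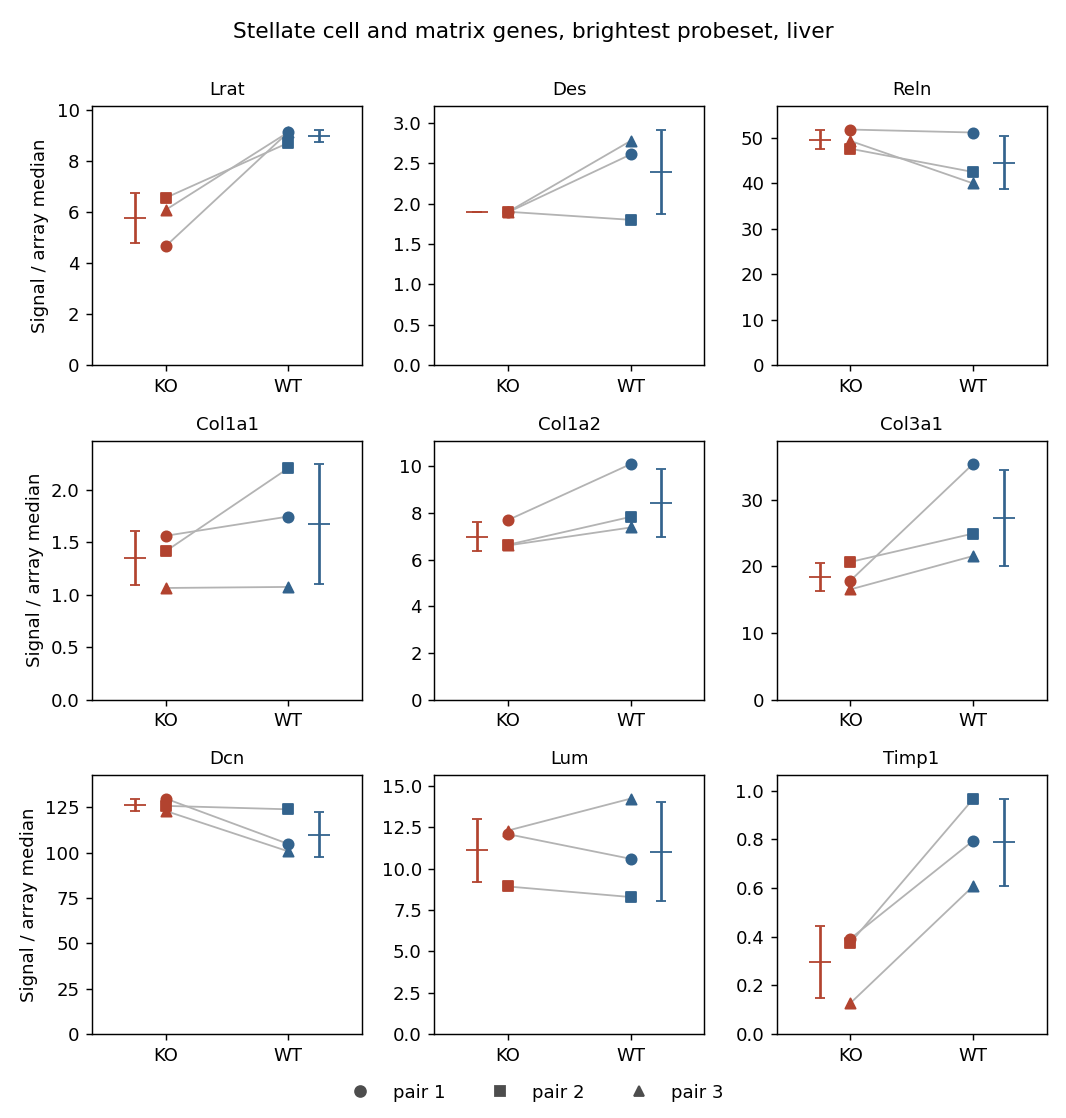
Signal divided by the array median (vertical axes, linear from 0) at the brightest probeset of each of the 9 genes in 3 KRAP-/- livers (KO, left, red) and 3 wild-type livers (WT, right, blue). Grey lines join littermates, and the crosses beside the points are the mean ± SD of each group (n = 3). All KRAP-/- points lie below all wild-type points for Lrat (4.67 to 6.56 against 8.72 to 9.14), Col3a1 and Timp1, and the groups overlap for the other 6 genes.

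The promoters of the 3 genes in which all KRAP-/- arrays read lower at the brightest probeset, Lrat, Col3a1 and Timp1, are shown with that of Reln, a stellate cell gene whose groups overlapped, so that their composition can be seen side by side. They are the 250 bases before the RefSeq start of each gene in GRCm38.p6, read 5′ to 3′ along the gene, and 6 of the 9 genes had such a sequence. Capitals mark every match, on either strand, to TATAA (the core of the TATA box), CCAAT (the box bound by nuclear factor Y) and GGGCGG (the GC box bound by Sp1).
Lrat, chr3:82903975-82904224, minus strand: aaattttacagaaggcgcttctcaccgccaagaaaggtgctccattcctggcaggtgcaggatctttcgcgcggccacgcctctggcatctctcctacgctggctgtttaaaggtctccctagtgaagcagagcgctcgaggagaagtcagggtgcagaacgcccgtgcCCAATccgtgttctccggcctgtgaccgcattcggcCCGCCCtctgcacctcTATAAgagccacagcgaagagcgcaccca
Col3a1, chr1:45311288-45311537, plus strand: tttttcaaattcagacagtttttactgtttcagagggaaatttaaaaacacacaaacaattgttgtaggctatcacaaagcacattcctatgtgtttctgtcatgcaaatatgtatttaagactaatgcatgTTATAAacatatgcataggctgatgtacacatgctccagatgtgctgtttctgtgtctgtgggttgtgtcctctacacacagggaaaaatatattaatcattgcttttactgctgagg
Timp1, chrX:20869916-20870165, plus strand: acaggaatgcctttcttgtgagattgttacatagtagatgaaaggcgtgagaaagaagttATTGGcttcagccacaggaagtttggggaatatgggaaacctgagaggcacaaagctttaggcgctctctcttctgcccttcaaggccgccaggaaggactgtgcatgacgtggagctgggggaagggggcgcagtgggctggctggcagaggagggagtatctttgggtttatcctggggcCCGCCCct
Reln, chr5:22344706-22344955, minus strand: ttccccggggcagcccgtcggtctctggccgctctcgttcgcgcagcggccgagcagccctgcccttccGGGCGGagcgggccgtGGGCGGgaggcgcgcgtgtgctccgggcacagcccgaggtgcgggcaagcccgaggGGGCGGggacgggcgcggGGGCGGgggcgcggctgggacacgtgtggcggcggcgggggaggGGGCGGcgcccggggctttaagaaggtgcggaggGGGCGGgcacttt

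The windows differed widely in composition, with a GC content of 59.2% for Lrat, 35.2% for Col3a1, 54.4% for Timp1 and 80.0% for Reln. Lrat held TATAA 29 bases before its start, GGGCGG 45 bases before it and CCAAT 81 bases before it. Col3a1 held TATAA on both strands, overlapping, 117 and 118 bases before its start, and none of the other motifs. Timp1 held CCAAT 190 bases and GGGCGG 8 bases before its start, and Reln held GGGCGG 6 times and no other motif. Of the other members with a sequence, Des held GGGCGG 2 times, and Col1a2 held it 2 times with 1 CCAAT. Among all 32851 promoters searched over the same 250 bases, 22.8% held TATAA, 33.8% CCAAT and 32.7% GGGCGG. The letters AGGTCA, a half-site of retinoic acid and other nuclear receptors, were searched too and matched in none of the 6 windows, against 14.0% of all promoters. A match is a run of letters and not a measured binding site.

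Lrat encodes lecithin retinol acyltransferase, the enzyme that makes the retinyl esters stellate cells store, and it had the lowest adjusted p of the 9 genes. Its brighter probeset, 1444487_at, read 4.67, 6.56 and 6.09 in KRAP-/- livers and 9.14, 8.72 and 9.14 in wild-type livers. All 3 KRAP-/- livers were below all 3 wild-type livers, which lay close together, and the lowest KRAP-/- liver belonged to pair 1. The mean was 5.78 ± 0.987 in KRAP-/- livers and 9.002 ± 0.241 in wild-type livers (SD, n = 3 each). The level in KRAP-/- livers was 0.511, 0.752 and 0.667 of that in the littermate. The log2 difference was -0.66 (SE 0.14, 95% interval -0.98 to -0.33, unadjusted p = 0.00137), and its adjusted p of 0.0697 missed the threshold (limma). Without pair 2 the difference was -0.78 and passed (adjusted p = 0.0282), and over all alternatives the adjusted p ranged from 0.0282 to 0.43.

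The other Lrat probeset, 1421345_at, lay close to the array median, at 0.619, 0.814 and 0.720 in KRAP-/- livers and 0.893, 0.862 and 1.103 in wild-type livers. The order of the groups was the same as at the brighter probeset, with all KRAP-/- livers lower, but the gap was small against the error of a dim probeset. The log2 difference was -0.41 (SE 0.40, 95% interval -1.32 to 0.50, adjusted p = 0.683, limma).

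Des encodes desmin, the intermediate filament by which rodent stellate cells are stained. At 1426731_at it read 1.90 in each of the KRAP-/- livers (mean 1.90 ± 0.00273, SD, n = 3) and 2.61, 1.80 and 2.78 in the wild-type livers (2.40 ± 0.523). The KRAP-/- livers were alike, 2 of the wild-type livers were higher and the other was lower, so the groups overlapped. Its log2 difference from wild type was -0.31 (SE 0.22, 95% interval -0.81 to 0.19, adjusted p = 0.556, limma), and -0.51 without pair 2 and -0.19 without pair 3. The second Des probeset, 1426732_at, was too dim to be tested, at 0.2996, 0.140 and 0.591 in KRAP-/- livers and 0.131, 0.260 and 0.380 in wild-type livers.

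Reln encodes reelin, a secreted glycoprotein that in liver marks stellate cells in both their resting and activated states. At 1449465_at it read 51.7, 47.5 and 49.3 in KRAP-/- livers and 51.1, 42.4 and 39.9 in wild-type livers. KRAP-/- livers were the higher of each littermate pair by ratios of 1.01, 1.12 and 1.23, and the groups overlapped because the wild-type liver of pair 1 was among the high arrays. This gave a log2 difference of 0.16 (SE 0.09, 95% interval -0.04 to 0.37, adjusted p = 0.452, limma), opposite in sign to that of Lrat, and 0.09 without pair 3. The dim second probeset, 1458020_at, ran from 0.443 to 0.671 in KRAP-/- livers and from 0.0544 to 0.742 in wild-type livers, with 1 array under the floor of 0.1, and its difference of 0.48 (SE 0.87, adjusted p = 0.841) became -0.66 without pair 2.

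The fibrillar collagens are the load-bearing fibres of the matrix, type I being a heterotrimer of the Col1a1 and Col1a2 chains and type III a homotrimer of the Col3a1 chain. Of these 3 genes, Col3a1 had the largest difference at the brightest probeset. Its brighter probeset, 1427883_a_at, read 17.9, 20.7 and 16.5 in KRAP-/- livers and 35.4, 24.9 and 21.6 in wild-type livers. All KRAP-/- livers were lower than all wild-type livers, narrowly so between KRAP-/- of pair 2 and wild type of pair 3, and the wild-type liver of pair 1 stood well above the rest. This array also had the highest beta-actin ratio of 3′ to 5′ probes, 2.65 against 2.01 to 2.32 on the other arrays, and the part of RNA quality in the result was not tested. The mean was 18.4 ± 2.11 in KRAP-/- livers and 27.3 ± 7.21 in wild-type livers (SD, n = 3 each), and the ratios within pairs were 0.504, 0.829 and 0.767. The log2 difference was -0.55 (SE 0.14, 95% interval -0.86 to -0.23, unadjusted p = 0.00341, adjusted p = 0.107, limma). It passed without pair 2 (-0.68, adjusted p = 0.0193) and without pair 3 (-0.63, adjusted p = 0.0472), was -0.33 without pair 1, and its adjusted p ranged from 0.0193 to 0.486 over all alternatives. At 1427884_at, near the array median, Col3a1 read 1.18, 1.06 and 0.781 in KRAP-/- livers and 1.63, 1.27 and 1.02 in wild-type livers, lower in the KRAP-/- liver of every pair with overlapping groups (-0.37, SE 0.31, adjusted p = 0.622).

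Col1a2 at 1450857_a_at read 7.69, 6.63 and 6.61 in KRAP-/- livers and 10.1, 7.83 and 7.37 in wild-type livers. The KRAP-/- liver was the lower one in every pair, at 0.762, 0.847 and 0.896 of its littermate, and the groups overlapped. A log2 difference of -0.26 resulted (SE 0.12, 95% interval -0.54 to 0.02, adjusted p = 0.367, limma). A second probeset, 1423110_at, gave 1.36, 1.63 and 1.63 in KRAP-/- livers and 1.76, 1.61 and 1.09 in wild-type livers, with a difference of 0.07 (SE 0.28, adjusted p = 0.932), so the 2 tested probesets of Col1a2 differed in sign. Another, 1446326_at, was too dim to be tested, between 0.0347 and 0.0836 in KRAP-/- livers and between 0.0130 and 0.337 in wild-type livers, with 4 arrays under the floor.

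Col1a1 at 1423669_at read 1.56, 1.42 and 1.06 in KRAP-/- livers and 1.75, 2.21 and 1.07 in wild-type livers. Littermates of pair 3 were both low and nearly equal, and the gap was widest in pair 2. For this probeset the log2 difference was -0.27 (SE 0.27, 95% interval -0.88 to 0.34, adjusted p = 0.685, limma), and it was -0.09 without pair 2. At 1455494_at Col1a1 read 0.674, 0.895 and 0.888 in KRAP-/- livers and 0.932, 0.847 and 1.16 in wild-type livers, overlapping, with a difference of -0.26 (SE 0.38, adjusted p = 0.797). Whether the collagen genes differed from each other was not tested.

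Decorin (Dcn) and lumican (Lum) are small leucine-rich proteoglycans that bind collagen fibrils and set their diameter and spacing. Both genes lie on chromosome 10, with 0 protein-coding genes between them in the RefSeq table of GRCm38.p6. Dcn at 1449368_at read 130, 126 and 123 in KRAP-/- livers and 105, 124 and 101 in wild-type livers. The KRAP-/- liver was the higher one in each pair, at 1.24, 1.01 and 1.22 times its littermate, and the groups overlapped through the wild-type liver of pair 2. The mean was 126 ± 3.43 in KRAP-/- livers and 110 ± 12.4 in wild-type livers (SD, n = 3 each). The log2 difference was 0.21 (SE 0.09, 95% interval 0.01 to 0.40, unadjusted p = 0.0424, adjusted p = 0.315, limma). The dim Dcn probeset 1441506_at pointed the other way, at 1.39, 1.09 and 0.874 in KRAP-/- livers and 1.56, 1.22 and 0.929 in wild-type livers (-0.14, SE 0.30, adjusted p = 0.873).

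Lum at 1423607_at read 12.1, 8.93 and 12.3 in KRAP-/- livers and 10.6, 8.29 and 14.2 in wild-type livers. Littermates followed each other, with pair 2 lowest in both groups, and the KRAP-/- liver was higher in pairs 1 and 2 and lower in pair 3. On the log2 scale the groups differed by 0.03 (SE 0.12, 95% interval -0.25 to 0.31, adjusted p = 0.937, limma), so that a change of Lum beyond 0.31 in either direction lay outside the interval.

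Timp1 encodes a secreted inhibitor of matrix metalloproteinases that activated stellate cells make. It read 0.392, 0.375 and 0.127 in KRAP-/- livers and 0.794, 0.965 and 0.607 in wild-type livers at its 1 probeset, 1460227_at. All KRAP-/- livers were lower than all wild-type livers, and the lowest array of each group was that of pair 3. The ratios within pairs were 0.493, 0.388 and 0.209, and the log2 difference was -1.55 (SE 0.69, 95% interval -3.11 to 0.02, adjusted p = 0.341, limma). All 6 levels lay below the array median, and whether they exceed background cannot be told from the signals alone. The probeset passed the limit of 0.5 on its mean only through the wild-type livers, so its direction among the tested probesets is no support.

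The methods also count a probeset as changed when its level moves 1.5-fold or more, in 1 direction, within all 3 pairs. That rule was met by 1 of the 17 probesets, that of Timp1, lower in KRAP-/- livers, and by 0 higher. Over all 45037 probesets, with no limit on dim ones, 2.88% met the rule lower and 2.3% higher, and among the probesets tested 1.38% met it lower. Lrat missed it at 1444487_at through pair 2 alone, where the ratio was 0.752.

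**Figure D2:**
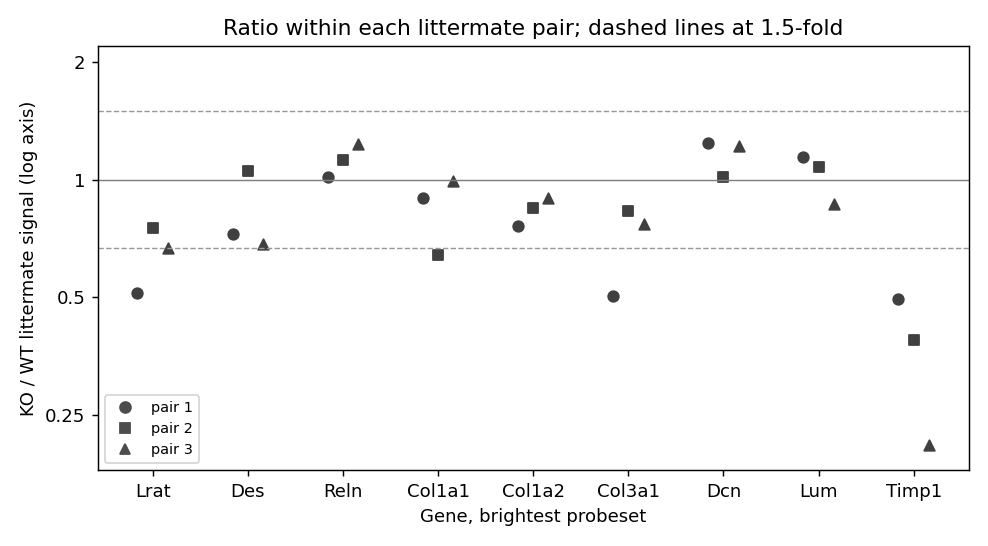
Ratio of the KRAP-/- liver to its wild-type littermate (vertical axis, log scale) at the brightest probeset of each of the 9 genes, with 1 symbol for each of the 3 pairs, a solid line at 1 and dashed lines at 1.5-fold up and down. Only Timp1 has all 3 pairs beyond a dashed line, at 0.493, 0.388 and 0.209, Lrat has pairs 1 and 3 at or beyond it, and Reln and Dcn have all pairs above 1.

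The precision of these comparisons varied with brightness. The standard error of the log2 difference was smallest at the brightest probeset of Dcn, 0.09, and largest at the dim Reln probeset, 0.87. The 95% interval included 0 at 12 of the 15 probesets. Between the lowest and the highest of the 6 livers, the level differed 1.29-fold for Dcn and 1.3-fold for Reln at their brightest probesets, 2.14-fold for Col3a1 and 7.61-fold for Timp1.

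**Figure D3:**
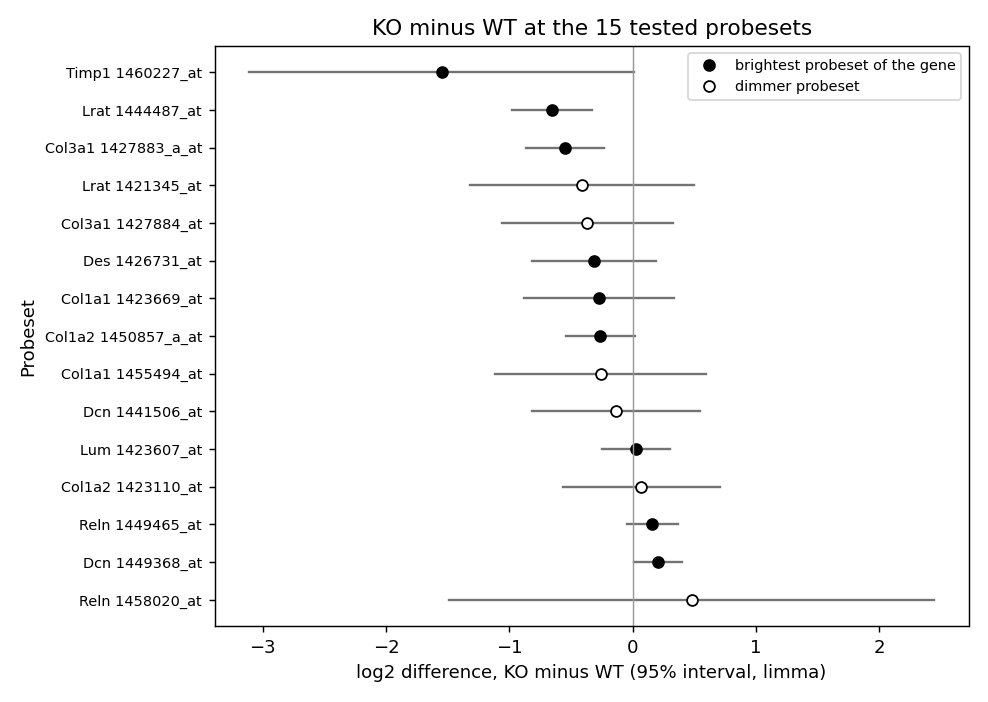
Log2 difference, KRAP-/- minus wild type (horizontal axis), with its 95% interval from limma at each of the 15 tested probesets (n = 3 livers per group), ordered from the lowest at the top. Filled points are the brightest probeset of each gene and open points the dimmer ones. The intervals exclude 0 at Lrat 1444487_at and Col3a1 1427883_a_at, both below 0, and at Dcn 1449368_at, above 0, and none of these passed the adjusted test.

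Of the other genes that mark stellate and mural cells, 19 of 20 had a tested probeset, and 0 were called in either direction at their brightest one, where 0.333% of all genes were called higher and 1.31% lower. An unadjusted p under 0.05 was found for 5 of the 19 (limma), beside 14.9% of all probesets tested. Shares of all probesets tested, here and below, also count the dimmer probesets of each gene, so their base is unlike that of the lists. Of the 19 differences 13 lay below 0 and 6 above, with a median of -0.07, beside 62.1% below 0 over all genes. Their summed level was 296 to 328 in KRAP-/- livers and 308 to 352 in wild-type livers, ranges that overlap. Such sums, here and below, are set mostly by the brightest probesets of a list, here Colec11, Cxcl12 and Ecm1, and tell little of the dimmer ones. All KRAP-/- arrays read lower for Cxcl12, Tcf21 and Rgs5 (3 of the 19, beside 15.2% over all genes). They read higher for Hand2 and Hgf, where 7.8% of all probesets tested had all KRAP-/- arrays higher. The largest differences in the list were those of Adamtsl2, a secreted matrix protein that binds latent TGF-beta binding protein, at -0.74 (adjusted p = 0.244, limma; -0.28 without pair 3), and Hgf, the hepatocyte growth factor, at 0.56 (adjusted p = 0.198). Hgf read 3.97, 5.07 and 4.26 in KRAP-/- livers and 2.26, 3.17 and 3.77 in wild-type livers at that probeset, without overlap, and its 2 other tested probesets gave 0.24 and 0.20 with overlapping groups.

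The retinoid handling genes, which carry, oxidise, esterify and degrade vitamin A, held 17 tested genes of 24, of which 1 was called lower and 0 higher, with a median of -0.06. Of the 17 differences 12 lay below 0 and 5 above. Over all genes 1.31% were called lower, 0.333% higher and 62.1% lay below 0, with a median of -0.08. The called gene was Rdh11, a retinol dehydrogenase that interconverts retinol and retinal. At 1449209_a_at it read 8.67, 10.03 and 9.10 in KRAP-/- livers and 28.0, 32.5 and 32.6 in wild-type livers, far apart in every pair. The log2 difference was -1.74 (SE 0.10, 95% interval -1.97 to -1.52, adjusted p = 0.000404, limma), a level of 0.298 of wild type, and the second probeset, 1418760_at, gave -1.69 (adjusted p = 0.000404). The other 16 genes of this list were not called. An unadjusted p under 0.05 was found for 4 of the 17 (limma), beside 14.9% of all probesets tested. In 3 of the 17 all KRAP-/- arrays read lower, beside 15.2% over all genes. These were Rdh11, Rdh5 (-0.55, adjusted p = 0.0946, limma) and Dhrs3 (-0.38, adjusted p = 0.119).

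Of the 14 other collagens, all of which were tested, 0 were called (1 at an unadjusted p under 0.05), with 12 differences below 0, 2 above and a median of -0.21, where 62.1% of all genes lay below 0 and their median was -0.08. Called shares over all genes were 0.333% higher and 1.31% lower, and 14.9% of all probesets tested had an unadjusted p under 0.05 (limma). The lowest were Col12a1, a fibril-associated collagen, at -0.70 (adjusted p = 0.705, 0.67 without pair 2), and Col5a2, a chain of the type V collagen that nucleates fibrils, at -0.56 (adjusted p = 0.393, limma; -0.17 without pair 2). Col5a2 is the next protein-coding gene to Col3a1 on chromosome 1, with 0 between them, and read 2.26, 1.54 and 1.74 in KRAP-/- livers and 3.04, 3.93 and 1.63 in wild-type livers, higher in the KRAP-/- liver of pair 3. Among the genes of collagen processing, the enzymes that hydroxylate, trim and cross-link collagen and their helper proteins, 15 of 20 were tested and 0 were called (3 at an unadjusted p under 0.05), with 12 below 0, 3 above and a median of -0.26, against the same shares and median. In 5 of the 15 all KRAP-/- arrays read lower, beside 15.2% over all genes. Loxl1, a lysyl oxidase that cross-links elastin and collagen, read 2.21, 2.25 and 1.24 in KRAP-/- livers and 3.87, 3.18 and 2.796 in wild-type livers, without overlap (-0.83, SE 0.21, adjusted p = 0.105), and P3h1, a prolyl 3-hydroxylase, gave -0.49 (adjusted p = 0.359).

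Of the matrix glycoproteins and proteoglycans, 22 of 28 were tested, with 1 called higher, 0 lower, 16 differences below 0, 6 above and a median of -0.22, where over all genes 0.333% were called higher, 1.31% lower and 62.1% lay below 0. An unadjusted p under 0.05 was found for 7 of the 22 (limma), beside 14.9% of all probesets tested. Of those, Postn lay above 0, and Bgn, Prelp, Efemp1, Fbln1, Lama4 and Lamb1 lay below. In 5 of the 22 all KRAP-/- arrays read lower, beside 15.2% over all genes. They included Tnc, which averaged 0.388 in KRAP-/- livers and 0.7595 in wild-type livers. Tnc entered the test only through the wild-type livers, so its place in this count is no support. The called gene was Postn, periostin, a secreted protein that binds collagen and integrins. It read 14.3, 13.6 and 13.3 in KRAP-/- livers and 8.31, 8.62 and 7.18 in wild-type livers, 1.71-fold higher without overlap (log2 difference 0.78, SE 0.11, 95% interval 0.52 to 1.03, adjusted p = 0.0133, limma). Postn thus rose while the medians of its list, of the collagens and of all genes (-0.08) lay below 0. No gene of its list or of the collagens was called lower. Both calls, Rdh11 and Postn, were lost with no limit on dim probesets (adjusted p = 0.383) and with no intensity trend in the fit (adjusted p = 0.422), settings under which 0 probesets of the array were called (4551 and 3089 at an unadjusted p under 0.05).

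Among the proteases that cut matrix proteins and their inhibitors, 12 of 19 were tested and 0 called (1 at an unadjusted p under 0.05), with a median of -0.08. Over all genes 0.333% were called higher and 1.31% lower, and the median was also -0.08. Of all probesets tested, 14.9% had an unadjusted p under 0.05 (limma). Timp4, another metalloproteinase inhibitor, gave 0.998 (SE 0.75, adjusted p = 0.574; 0.31 without pair 3 and 1.69 without pair 1), with levels of 0.515 to 0.850 in KRAP-/- livers and 0.0921 to 1.11 in wild-type livers, and the gelatinase Mmp9 gave -0.52 (adjusted p = 0.780, 0.31 without pair 2). Of 17 genes of TGF-beta and PDGF signalling, the growth factors that drive collagen synthesis and stellate cell division, 0 were called (1 at an unadjusted p under 0.05) and the median was -0.07, against the same shares and median over all genes. The ligands Tgfb2 and Tgfb3 had the largest differences, -0.90 (adjusted p = 0.538) and 0.73 (adjusted p = 0.813, -0.58 without pair 3). Tgfb2 averaged 0.400 in KRAP-/- livers and 0.735 in wild-type livers, so it entered the test only through the wild-type livers, and Tgfb3, which averaged 0.731 in KRAP-/- livers and 0.504 in wild-type livers, had its pairs in opposite directions.

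Reelin acts through the receptor encoded by Vldlr and the adaptor encoded by Dab1, and 6 of the 7 genes of this pathway were tested, with 0 called (1 at an unadjusted p under 0.05) and a median of 0.11. Of the 6 differences 4 lay above 0 and 2 below. Over all genes 0.333% were called higher, 1.31% lower and 62.1% lay below 0, with a median of -0.08. Of all probesets tested, 14.9% had an unadjusted p under 0.05 (limma). Vldlr, a receptor for both reelin and lipoproteins, read 22.9, 24.7 and 20.6 in KRAP-/- livers and 12.8, 13.8 and 19.1 in wild-type livers at its brightest probeset, 1434465_x_at. The KRAP-/- livers were all higher, but in pair 3 by a ratio of 1.08 only. Its log2 difference was 0.60 (SE 0.15, adjusted p = 0.102, limma), which passed without pair 3 (0.84, adjusted p = 0.00216) and on the values as deposited (0.65, adjusted p = 0.0443). The other tested Vldlr probesets gave 0.63 at 1417900_a_at, 0.70 at 1438258_at, 0.37 at 1442169_at, 0.59 at 1451156_s_at and -0.08 at 1435893_at (adjusted p = 0.22 to 0.888). Groups overlapped at all of these but 1451156_s_at, which averaged 0.637 in KRAP-/- livers and 0.437 in wild-type livers. That probeset passed the limit of 0.5 only through the KRAP-/- livers. Dab1 gave -0.22 (adjusted p = 0.915), and 0.32 without pair 1 and 0.25 without pair 2. Its levels were dim, at 0.33 to 0.90 in KRAP-/- livers and 0.26 to 1.39 in wild-type livers.

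**Figure D4:**
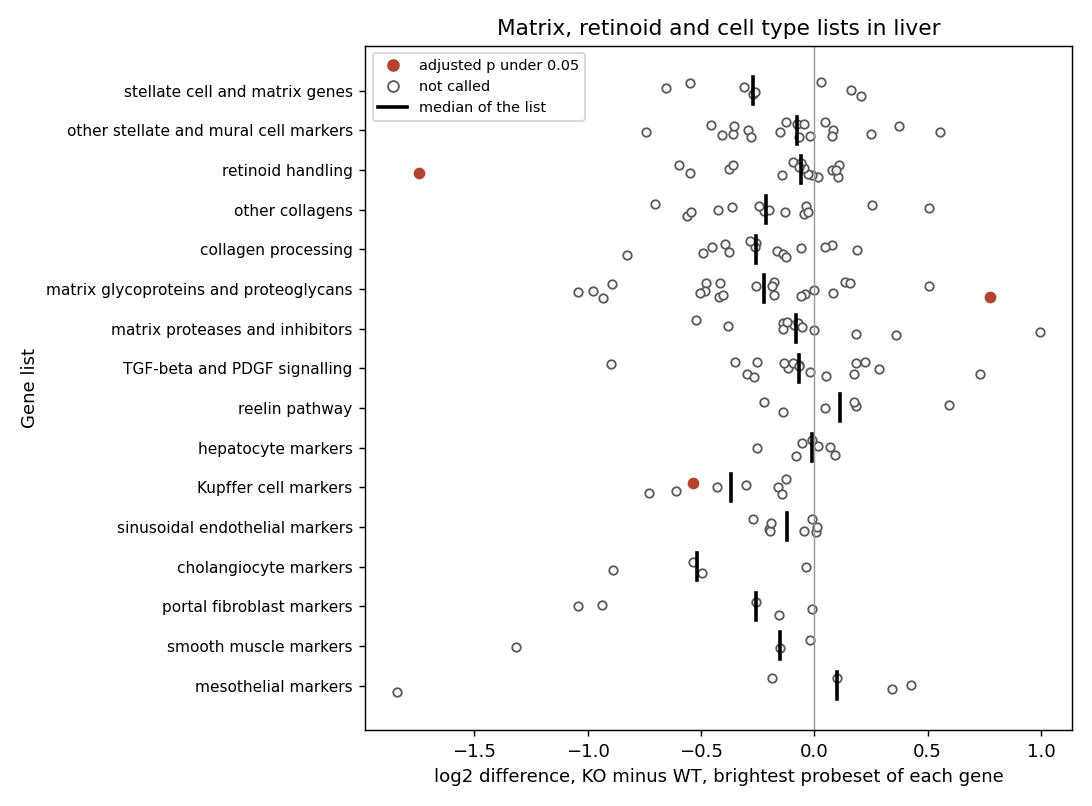
Log2 difference, KRAP-/- minus wild type (horizontal axis), at the brightest probeset of each tested gene, 1 row of points for each list, with the 9 stellate cell and matrix genes at the top. Filled points passed an adjusted p of 0.05 (limma, n = 3 livers per group), open points did not, and black bars are medians. The 3 filled points are Rdh11 at -1.74, Postn at 0.78 and Clec4f at -0.54, and the adipocyte list, with 1 tested gene at -2.51, is not drawn.

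Markers of other liver cells were read beside these results, and their part in the results was not tested. The 7 hepatocyte markers had a median of -0.01 and a summed level of 3504 to 4018 in KRAP-/- livers and 3702 to 3792 in wild-type livers, with 0 called and 0 at an unadjusted p under 0.05 (limma). Kupffer cell markers, those of the resident macrophages, lay below 0 in all 8 genes, with a median of -0.37 and a summed level of 176 to 187 in KRAP-/- livers and 205 to 240 in wild-type livers, without overlap. Over all genes 62.1% lay below 0, the median was -0.08, 1.31% were called lower and 15.2% had all KRAP-/- arrays lower, which held for 5 of the 8 Kupffer cell genes. An unadjusted p under 0.05 was found for 4 of the 8 (limma), beside 14.9% of all probesets tested. Of the 8, 1 was called lower, Clec4f, a Kupffer cell lectin receptor, which read 22.5, 24.03 and 22.9 in KRAP-/- livers and 31.6, 34.8 and 34.1 in wild-type livers (-0.54, SE 0.09, adjusted p = 0.0255, limma; 0.0705 on the values as deposited, 0.383 with no limit on dim probesets and 0.422 with no intensity trend). The 8 sinusoidal endothelial markers summed to 131 to 138 in KRAP-/- livers and 141 to 155 in wild-type livers, a sum without overlap, but in 6 of the 8 genes the groups overlapped. Their median was -0.12, near the -0.08 of all genes, with 0 called and 0 at an unadjusted p under 0.05.

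Markers of cells of the portal tract and the liver surface gave the following values. Portal fibroblast markers, of the other collagen-making cell of the liver, had 5 of 6 genes tested, all below 0 (62.1% over all genes), with a summed level of 5.97 to 7.81 in KRAP-/- livers and 7.12 to 9.90 in wild-type livers, and Fbln2 and Thy1 gave -1.04 (adjusted p = 0.468) and -0.94 (adjusted p = 0.254). Among these genes, Cd34 lay at -0.009 only, and Eln and Fbln2 also belong to the matrix glycoprotein list above. Fbln2 read 0.888, 0.131 and 1.27 in KRAP-/- livers and 1.01, 0.989 and 1.29 in wild-type livers, so its difference came from the KRAP-/- liver of pair 2 and was -0.10 without that pair. Smooth muscle markers summed to 6.77 to 9.41 in KRAP-/- livers and 7.34 to 10.2 in wild-type livers, with overlap. Cholangiocyte markers summed to 3.97 to 5.96 in KRAP-/- livers and 5.21 to 6.51 in wild-type livers, and mesothelial markers to 5.36 to 5.61 in KRAP-/- livers and 5.36 to 6.58 in wild-type livers, also with overlap. In these 4 lists 0 genes were called (limma), where 0.333% of all genes were called higher and 1.31% lower. Beside 14.9% of all probesets tested, 1 portal fibroblast and 1 mesothelial marker had an unadjusted p under 0.05 (limma). The mesothelial one was Wt1, which averaged 0.245 in KRAP-/- livers and 0.850 in wild-type livers and so passed the limit on its mean only through the wild-type livers. Adipoq, the 1 tested adipocyte marker, read 0.144, 0.0318 and 0.254 in KRAP-/- livers and 2.201, 0.694 and 0.444 in wild-type livers (-2.51, adjusted p = 0.252, and -3.37 to -1.62 over all alternatives). It too entered the test only through the wild-type livers, above all that of pair 1.

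**Figure D5:**
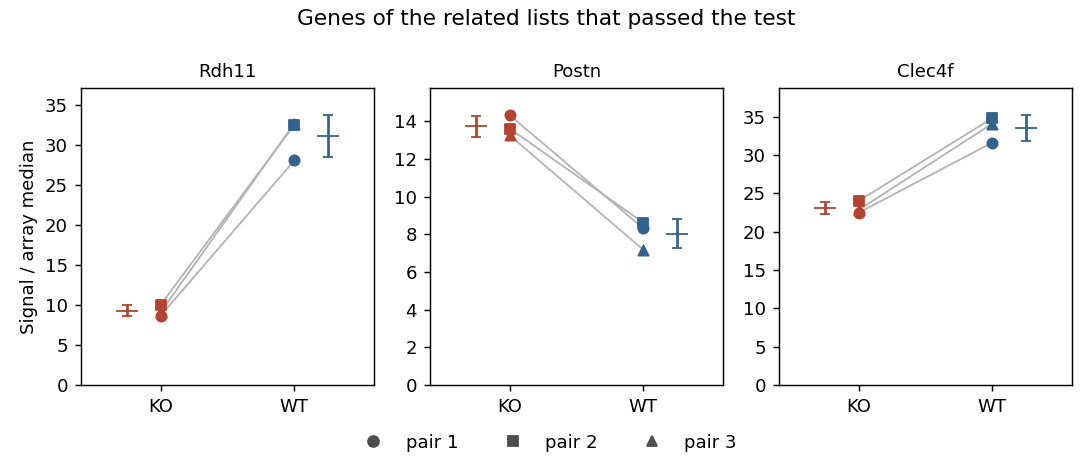
Signal divided by the array median (vertical axes, linear from 0) of Rdh11, Postn and Clec4f, the genes of the related lists that passed the test, in 3 KRAP-/- livers (KO, left, red) and 3 wild-type livers (WT, right, blue), with lines joining littermates and the mean ± SD beside the points (n = 3). The groups do not overlap in any of the 3, and Rdh11 is at 8.67 to 10.03 in KRAP-/- livers against 28.0 to 32.6 in wild-type livers.

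The genes whose levels followed those of 3 members most closely were found as the smallest root mean square difference of centred log2 values over the 6 livers, among 23786 probesets annotated to 1 gene. For Lrat these were Snupn (0.0702), Ugt3a1 (0.0721) and Anapc1 (0.0776). Ugt3a1, a glycosyltransferase of the liver, was itself called lower, at 18.8, 22.5 and 22.2 in KRAP-/- livers and 32.9, 32.6 and 34.7 in wild-type livers (-0.66, SE 0.10, adjusted p = 0.0135, limma). For Col1a1 they were Particl (0.0704), Atp4b (0.0804) and Nudcd1 (0.0983), and for Timp1 they were Cenpn (0.198), Fut2 (0.229) and 1700027J07Rik (0.253), which lay farther from it. Those nearest to Timp1 averaged 0.2705, 0.404 and 0.386 in KRAP-/- livers and 0.735, 0.835 and 0.809 in wild-type livers. Like Timp1, they passed the limit of 0.5 only through the wild-type livers. These likenesses over 6 livers were picked from many probesets and are given as a description.

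Over all 28531 probesets tested, 402 were called, 123 higher and 279 lower in KRAP-/- livers. The split was 170 higher and 205 lower on the values as deposited and 152 higher and 208 lower after quantile normalization, while the median over all probesets tested moved by under 0.1. Without pair 3 the counts were 338 higher and 522 lower.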

How the data were processed

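Per the labels and the methods, the authors hybridised RNA from 6 livers, those of 3 KRAP-/- mice and of a wild-type littermate of each, 1 array per mouse. The deposited values are linear signal intensities of the GCOS software (version not given in the sources used here), neither log transformed nor scaled to a common median. Probesets were named through the platform annotation, in which 34945 had 1 gene symbol, 932 several and 9160 none. The members and lists were chosen with earlier results of these data known.

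Following the 50th percentile normalization of the methods, signals were expressed relative to their array median, raised to 0.1 where lower, and log2 transformed. limma 3.58.1 under R 4.3.3 was run on the 28531 probesets that averaged 0.5 or more, with terms for pair and genotype and moderation along an intensity trend. P-values were adjusted by Benjamini-Hochberg, and an adjusted p under 0.05 was called. All p-values rest on 3 mice per group. 64 control probesets were left out. A gene was read at its brightest probeset in lists and at every probeset for the 9 members. Some genes, such as Ttr, Acta2, Tagln, Eln and Fbln2, are in several lists and count in each. The pairing comes from the design text, which makes equal numbers littermates. Deviations of littermates from their group means correlated at 0.0429, 0.00954 and -0.0124 in pairs 1 to 3. Those of mice from different pairs correlated at -0.052 to 0.0431, so littermates did not stand apart by this measure. Named from other lists were up to 4 genes called or, with none called, the 2 largest differences. The fit was tested on simulated data. Tables and plots were made with Python 3.11.15, pandas 2.3.3, numpy 2.4.6 and matplotlib 3.10.9. Each result was recomputed on the values as deposited, after quantile normalization, with another floor (0.01), with a pseudocount (0.25), with a limit of 1 or none on the mean, with no pair block, with no intensity trend and without each pair.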

Additional observations from a re-analysis of the deposited data

How the results depend on the processing

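At the 15 member probesets, 154 of 161 alternative values kept direction and side of the threshold, 3 passed it when a pair was left out and 4 turned sign. Left-out pairs gave 0 to 2 members called lower, against 0 with all pairs: Lrat 1444487_at without pair 2, and Col3a1 1427883_a_at without pair 2 or pair 3. Those that turned sign were Reln 1458020_at (-0.66 without pair 2, up to 1.09 without pair 1), Col1a2 1423110_at (-0.18 without pair 3, up to 0.30 without pair 1) and Lum (-0.051 without pair 1, -0.0098 without pair 2 and 0.15 without pair 3). No member was called under any setting that kept all 6 arrays, but 3 or 4 had an unadjusted p under 0.05 under each of them except the values as deposited, with 2. Outside the members, leaving out a pair gave -1.66 to 0.67 for Col12a1, -1.08 to 0.31 for Mmp9, -1.88 to 0.33 for Krt7, -0.58 to 2.55 for Tgfb3, -1.23 to 0.32 for Dab1 and -0.93 to 0.027 for Krt19, whose signs turned. Of the 308 values of the other named probesets, 290 kept direction and side of the threshold.

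Over all probesets, 0 were called higher and 0 lower with no limit on dim probesets (4551 at an unadjusted p under 0.05) or with no intensity trend (3089), and leaving out a pair gave 110 to 338 higher and 267 to 522 lower, the highest of each without pair 3. In the lists other than the members, 1 gene was called higher and 2 lower, against 2 and 1 on the values as deposited and 0 and 0 under those 2 settings, and 1 to 2 higher and 3 to 7 lower with a pair left out. Without the replicate block, 93 were called higher and 255 lower, the adjusted p was 0.0610 for Lrat and 0.162 for Col3a1, and no member call changed. The cause of these changes was not tested. With 6 arrays, and with Timp1 and several second probesets below the array median, small changes of dim members were not detectable.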
